A study of Mus musculus with 32 samples.

Results

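The 10 heat shock chaperone genes Hspa1a, Hspa1b, Hspa8, Hsph1, Dnajb1, Bag3, Hspb1, Hsp90aa1, Hsp90ab1 and Hspe1 were followed across 32 murine mesothelioma tumors. They were found by symbol, and all 10 were among the 39676 genes counted and passed the filter on low counts in every comparison. AB1 tumors grew in BALB/c mice from 500000 inoculated cells, and AE17 tumors grew in C57BL/6 mice from 1000000 cells. In each model 8 mice were inoculated intrapleurally (IPL), under isoflurane, and 8 others subcutaneously (SC), and whole untreated tumors were collected on day 10 from female mice that were 8 to 10 weeks old at use. Each model is 1 cell line in 1 mouse strain, so that line, strain and inoculated number cannot be told apart. Host stroma, blood vessels and immune cells remained in the samples. The lungs and adjoining tissues were trimmed off before RNA extraction. Of 9 mesothelial markers 6 were analysed, and Pdpn made up most of their summed level, whereas Calb2 averaged at most 0.795 CPM and Upk3b at most 4.07 CPM in any group, a mean that came mostly from 1 AB1 IPL tumor with 31.4 CPM. CPM is the number of reads on a gene scaled to a common library size of 1000000 reads, with TMM scaling across all 32 mice.

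Heat shock proteins hold unfolded proteins and help them to fold. HSP70 proteins (Hspa1a, Hspa1b, Hspa8) take up clients that J-domain proteins such as Dnajb1 deliver, and exchange factors such as Hsph1 and Bag3 release them again. HSP90 proteins (Hsp90aa1, Hsp90ab1) act late in the maturation of kinases and receptors, Hspb1 belongs to the small heat shock proteins that hold unfolding clients without ATP and is abundant in muscle, and Hspe1 is the lid of the mitochondrial chaperonin. Hspa1a and Hspa1b are the classical stress-induced genes, which heat shock factor 1 (HSF1) switches on through heat shock elements, inverted repeats of a GAA unit in their promoters. Hspa8 and Hsp90ab1 are made constitutively.

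The sequences upstream of the start sites were searched for pairs of inverted GAA units, spelled GAANNTTC or TTCNNGAA, on both strands. Of the 10 members, 7 had a sequence in the RefSeq promoter table (GRCm38.p6), and Hspa8, Hsp90aa1 and Hsp90ab1 were not among them. Of those 7, 4 (Hspa1a, Hspa1b, Hspb1 and Hspe1) held at least 1 pair, whereas 12.8% of 32851 promoters did (6.69% for GAANNTTC and 7.17% for TTCNNGAA). Bag3, Hsph1 and Dnajb1 held none in the bases searched. The 250 bases upstream of the 4 genes that rose in AB1 IPL tumors are shown because their differences carry the results below, with the paired units in capitals. They lie at chr17:34972157-34972406 on the minus strand (Hspa1a), chr17:34959239-34959488 on the minus strand (Hspa1b), chr5:135887669-135887918 on the plus strand (Hspb1) and chr7:128523333-128523582 on the plus strand (Bag3), and are written in the direction of transcription.
Hspa1a: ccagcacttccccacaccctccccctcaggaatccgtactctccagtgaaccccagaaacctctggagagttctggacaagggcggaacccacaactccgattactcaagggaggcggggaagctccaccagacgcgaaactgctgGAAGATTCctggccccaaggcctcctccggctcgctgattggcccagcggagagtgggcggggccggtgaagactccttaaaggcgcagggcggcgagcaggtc
Hspa1b: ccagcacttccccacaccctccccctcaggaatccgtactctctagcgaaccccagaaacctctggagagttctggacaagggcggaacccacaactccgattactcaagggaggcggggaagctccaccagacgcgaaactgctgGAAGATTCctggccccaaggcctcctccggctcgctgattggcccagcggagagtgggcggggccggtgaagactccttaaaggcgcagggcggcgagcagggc
Hspb1: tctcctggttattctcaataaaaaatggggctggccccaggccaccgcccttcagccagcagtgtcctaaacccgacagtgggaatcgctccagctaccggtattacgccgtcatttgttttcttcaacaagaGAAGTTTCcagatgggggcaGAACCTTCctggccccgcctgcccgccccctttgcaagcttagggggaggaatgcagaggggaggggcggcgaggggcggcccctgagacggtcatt
Bag3: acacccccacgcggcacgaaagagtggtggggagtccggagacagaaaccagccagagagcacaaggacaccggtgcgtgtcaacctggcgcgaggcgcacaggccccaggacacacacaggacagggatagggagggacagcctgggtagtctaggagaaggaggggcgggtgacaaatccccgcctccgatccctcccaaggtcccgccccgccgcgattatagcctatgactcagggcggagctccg

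The Hspa1a and Hspa1b stretches were the same at 247 of 250 positions and held the pair at the same place, 104 bp upstream of the start. Hspb1 held pairs 117 bp and 97 bp upstream. Elements of 3 units in a row were present in 0.466% of the promoters and, of the 7 members searched, in Hspe1 alone, where the paired units overlapped in the 18 bases at chr1:55088059-55088076 on the plus strand.
Hspe1 element: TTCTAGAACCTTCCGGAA

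These matches describe the letters of the windows and not the binding of HSF1. The gene for HSF1 itself was not analysed here.

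Total counts per tumor ranged from 15432258 to 20649645, so that 3 counts, taken as the smallest detectable number, stood for 0.145 to 0.194 CPM. This limit covers counting error only. Every member had at least 16 counts in every tumor. AB1 IPL 2 and AB1 IPL 4 stood apart from their group, with mean correlations of 0.935 and 0.939 with the other AB1 IPL tumors, where all other tumors reached at least 0.952 with theirs. AB1 SC 1 and AE17 IPL 5 held the outlying member levels described below. The sequencing lane was nearly aligned with the groups, with all 8 AB1 IPL tumors and 2 AB1 SC tumors in lane 3, 6 AB1 SC and 5 AE17 IPL tumors in lane 2, and 3 AE17 IPL and 8 AE17 SC tumors in lane 1. Skeletal muscle markers also differed between groups. Their summed level had a median of 2810 CPM in AB1 IPL tumors (121 to 5710), 379 CPM in AB1 SC tumors (63.1 to 618), 683 CPM in AE17 IPL tumors (60.9 to 1030) and 736 CPM in AE17 SC tumors (49.8 to 1520), and 11 of 12 markers were higher in AB1 IPL than in AB1 SC tumors, with a median log2 difference of 2.96. Other markers differed as well. In AB1 IPL tumors 1 of 3 cardiac muscle markers was higher and 1 lower, 4 of 7 leukocyte markers were lower and 2 higher, 2 of 4 adipocyte markers were higher, 2 of 4 of fibroblasts and pericytes were higher and 2 of 5 of endothelium were higher, while the summed levels had medians of 22.9 and 7.28 CPM in IPL and SC tumors for cardiac muscle, 694 and 941 for leukocytes, 66.3 and 33.1 for adipocytes, 2510 and 1340 for fibroblasts and pericytes and 156 and 127 for endothelium. Leukocyte, fibroblast and endothelial levels were in none of the covariate fits described below, and their part in the results was not tested. In whole tumors, fewer cells of a type and less RNA per cell cannot be told apart.

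Most of the chaperone RNA came from Hspa8 and the HSP90 genes. The 10 members summed to a mean of 6329 ± 895.0 CPM (SD, n = 8) in AB1 IPL, 6187 ± 1153 CPM in AB1 SC, 7817 ± 737.1 CPM in AE17 IPL and 7443 ± 545.3 CPM in AE17 SC tumors, which was 0.619% to 0.782% of the libraries. Hspa8, Hsp90ab1 and Hsp90aa1 together gave between 91.2% and 93.6% of that sum. On a scale that allows genes to be compared, CPM per kilobase of exon, Hsp90ab1 was the most abundant in each group (821.3 to 902.4 on average), followed by Hspa8 (555.0 to 780.6) and Hsp90aa1 (200.6 to 273.8). Hspe1 lay at 82.32 to 93.77 and Hsph1, Dnajb1 and Bag3 lay between 17.77 and 39.13. Hspa1a and Hspa1b were the lowest in each group, at 1.332 to 4.784 and 2.336 to 7.258 CPM per kilobase. Hspb1 had no fixed place in this order. It averaged 5.95 CPM per kilobase in AB1 SC tumors, 37.14 in AB1 IPL tumors, 92.8 in AE17 SC tumors and 177.5 in AE17 IPL tumors.

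Reads of 50 bp cannot always separate these genes from their copies. Of the 50-base stretches of the Hspa1a transcript, 58.8% also occurred in Hspa1b, and in all 66.3% occurred in some other gene. The share was 62.3% for Hspa1b, 50.1% for Hspb1 (mostly a pseudogene, Hsp25-ps1), 47.5% for Hsp90aa1 (mostly Gm12346), 39.4% for Hspa8 (mostly Gm15459) and 22.8% for Hspe1. It was 3.44% for Hsp90ab1, 0.412% for Dnajb1 and 0 for Hsph1 and Bag3. How the counting treated such reads is not given in the sources used here, so levels of the first 6 genes are uncertain to that extent, and Hspa1a and Hspa1b are best read together. Their ratio was nearly fixed, with group medians of 0.611 to 0.708.

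**Figure D1:**
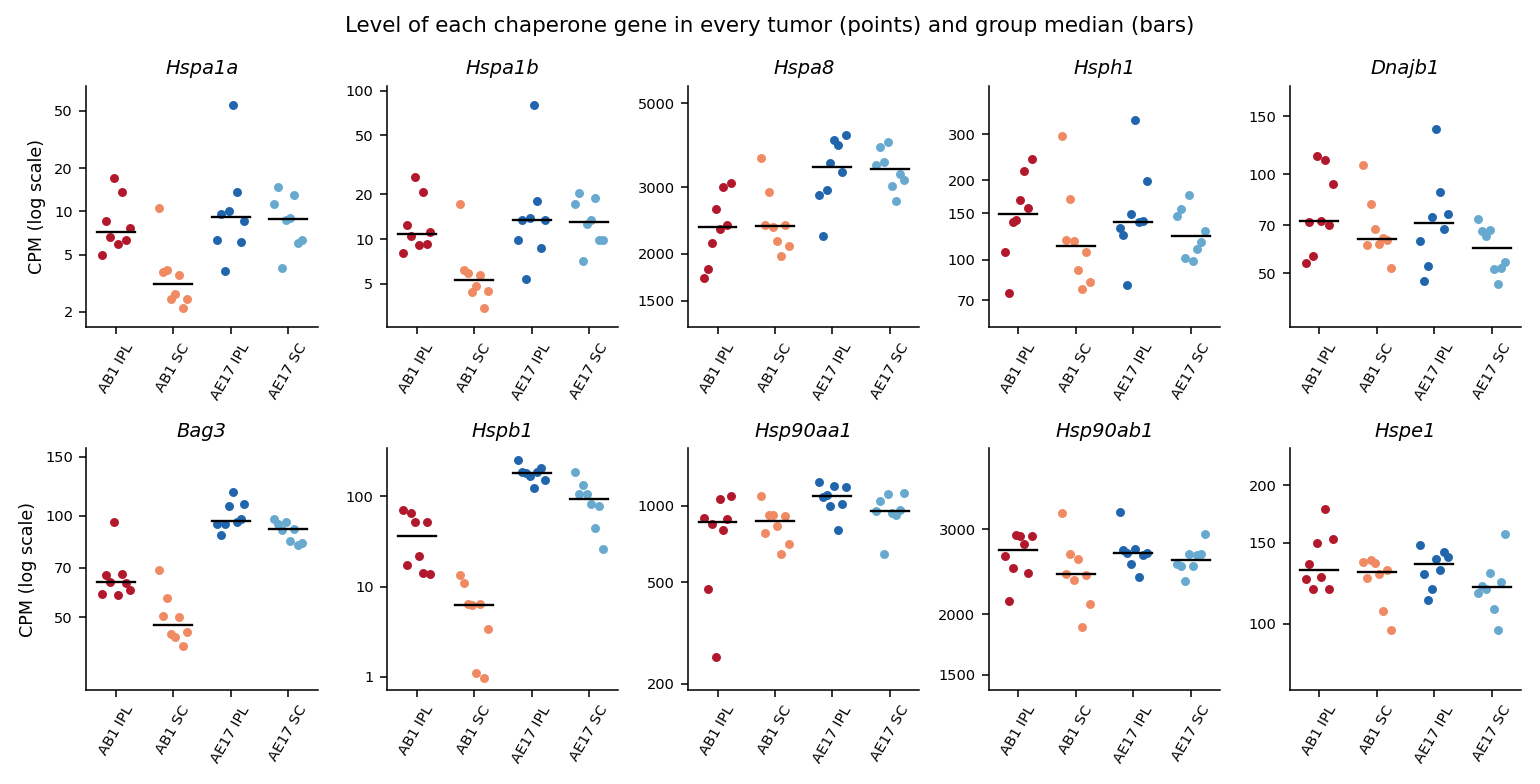
Level of each of the 10 heat shock chaperone genes in CPM (logarithmic axis, 1 panel per gene) in the 4 groups, with 1 point per mouse and a bar at the group median. Hspb1 differed most between groups, from 0.966 CPM in 1 AB1 SC tumor to 252.5 CPM in 1 AE17 IPL tumor, while Hsp90ab1 stayed between 1887 and 3261 CPM.

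To ask whether chaperone expression depended on the body compartment, IPL tumors were compared with SC tumors within each model. In AB1, 4 of the 10 members were higher in IPL tumors and none was lower: Hspb1, Hspa1a, Hspa1b and Bag3 (edgeR quasi-likelihood test over 14645 genes, with genes at an adjusted p under 0.05 called). Among all genes tested, 12.3% were called higher and 10.7% lower. The median log2 difference was 0.20 over the members and 0.00 over all genes.

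Hspb1 showed the largest difference of the 10. It ranged from 13.6 to 70.8 CPM, with a median of 36.6, in AB1 IPL tumors. In AB1 SC tumors it ranged from 0.966 to 13.6 CPM, with a median of 6.27. The groups did not overlap, though AB1 IPL 8 (13.64 CPM) and AB1 SC 1 (13.57 CPM) nearly met, and 5.02% of all genes were separated in this way. The fold difference was 6.14, a log2 difference of 2.62 with an SE of 0.53 (edgeR, adjusted p = 0.0019), and it was called in all 16 fits that left out 1 tumor (2.43 to 2.89). With the lane as a covariate the log2 difference was 1.62 (adjusted p = 0.301), and within lane 3, where 8 IPL tumors faced 2 SC tumors, it was 1.57 (adjusted p = 0.399).

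Muscle content moved with Hspb1 among the AB1 tumors. AB1 IPL 1, 3, 4 and 7, with 3970, 5710, 4860 and 3660 CPM of summed muscle markers, had 70.8, 65.2, 51.7 and 51.5 CPM of Hspb1. AB1 IPL 5, 6 and 8 had 1970, 1370 and 761 CPM of muscle markers and 21.7, 14.3 and 13.6 CPM of Hspb1. AB1 IPL 2 departed from this order, with 121 CPM of muscle markers, less than 6 of the 8 AB1 SC tumors, and 17.5 CPM of Hspb1, more than any AB1 SC tumor. The same tumor had 280 CPM of mesothelial and 271 CPM of adipocyte markers, where the group medians were 91.2 and 66.3 CPM. In AB1 SC tumors, the lowest Hspb1 levels, 1.11 and 0.966 CPM, stood in the tumors with the least muscle, at 63.1 and 72.3 CPM of markers. The muscle markers with the highest levels in AB1 IPL tumors were Acta1, Myh4 and Ttn. With the muscle score as a covariate, Hspb1 was still called, at a log2 difference of 1.31 (SE 0.37, adjusted p = 0.0358). With skeletal muscle, cardiac muscle, adipocyte and lung epithelium scores together it was 0.76 (SE 0.33, adjusted p = 0.195). In AE17 tumors Hspb1 did not rise with the muscle markers. AE17 IPL 1, with the least muscle of its group (60.9 CPM), had its highest Hspb1 level, 252.5 CPM. AE17 IPL 5, with the most muscle (1030 CPM), had the lowest, 123.5 CPM. AE17 IPL 8, with 71.5 CPM of markers, had 153.4 CPM of Hspb1. AE17 SC 1 and AE17 SC 6, with 67.7 and 1520 CPM of markers, had 185.6 and 45.2 CPM of Hspb1. AE17 SC 8, with 364 CPM, had the lowest SC level, 26.02 CPM.

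**Figure D2:**
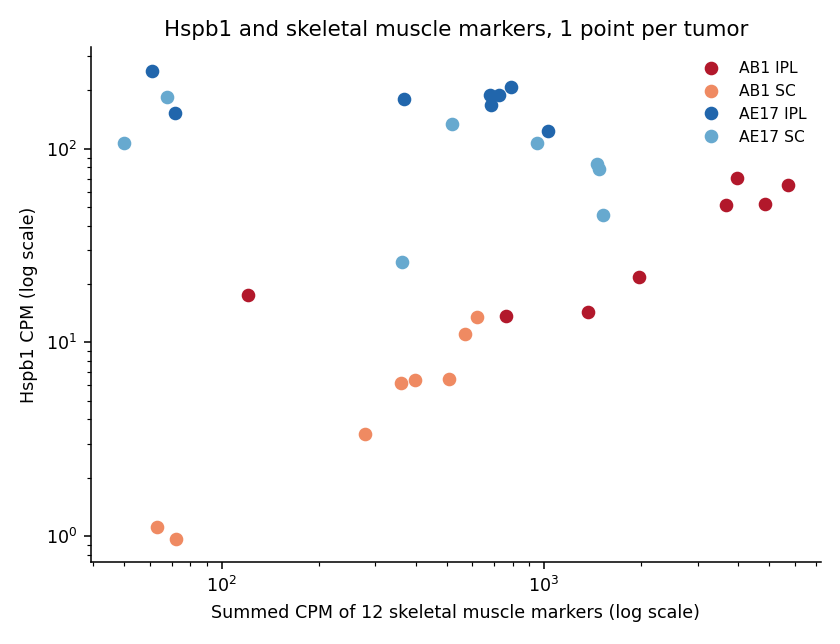
Hspb1 level in CPM against the summed level of 12 skeletal muscle markers in CPM, both on logarithmic axes, with 1 point per tumor and a color per group. The 4 AB1 IPL tumors with the most muscle RNA had the 4 highest Hspb1 levels of the AB1 tumors, 51.5 to 70.8 CPM, while AE17 tumors lay at 26.02 to 252.5 CPM of Hspb1 with 49.8 to 1520 CPM of muscle markers.

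The inducible HSP70 genes were both higher in AB1 IPL tumors, 2.2-fold for Hspa1a and 2.02-fold for Hspa1b. Hspa1a ranged from 5.00 to 17.01 CPM in IPL tumors (median 7.18) and from 2.11 to 10.6 CPM in SC tumors (median 3.15). All 8 IPL tumors lay above the SC median and 7 of 8 SC tumors lay below all IPL tumors, the exception being AB1 SC 1. The log2 difference was 1.14 (SE 0.34, adjusted p = 0.0216). Hspa1b ranged from 8.03 to 26.2 CPM (median 10.9) and from 3.44 to 17.4 CPM (median 5.28), with a log2 difference of 1.02 (SE 0.33, adjusted p = 0.033) and the same tumor as exception. The highest IPL levels of both genes stood in AB1 IPL 4 and the next highest in AB1 IPL 6. Counted as 1 gene, they differed by 1.07 (adjusted p = 0.0273).

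These calls lay close to the threshold. Hspa1a lost its call without AB1 IPL 4 (adjusted p = 0.0501), and Hspa1b lost it in 9 of the 16 fits without 1 tumor. Over these 16 fits the log2 difference was 0.90 to 1.54 for Hspa1a and 0.775 to 1.41 for Hspa1b. With all 32 mice in 1 fit Hspa1b was not called, at a log2 difference of 1.03 (adjusted p = 0.0668). Without AB1 IPL 2 and AB1 IPL 4 the log2 differences were 0.90 for Hspa1a (adjusted p = 0.0738) and 0.78 for Hspa1b (adjusted p = 0.111). Without AB1 SC 1 they were larger, at 1.54 (adjusted p = 0.000766) and 1.41 (adjusted p = 0.00104). AB1 SC 1 is 1 of the 2 SC tumors in lane 3, and within that lane the log2 differences were 0.23 for Hspa1a and 0.12 for Hspa1b (adjusted p = 0.885 and 0.942). AB1 SC 2, the other one, had 3.79 CPM of Hspa1a, close to the highest of the 6 SC tumors in lane 2, 3.89 CPM. Site and lane cannot be told apart for these genes. With the muscle score as a covariate the log2 difference was 0.85 for Hspa1a (adjusted p = 0.212) and 0.72 for Hspa1b (adjusted p = 0.286). With the 4 tissue scores together it was 1.04 for Hspa1a (adjusted p = 0.201) and 0.895 for Hspa1b (adjusted p = 0.277).

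Bag3, the HSP70 cofactor that directs clients to autophagy and is prominent in muscle, was modestly higher. It ranged from 58.1 to 95.6 CPM, with a median of 63.4, in AB1 IPL tumors and from 41.1 to 68.8 CPM in AB1 SC tumors (median 47.5), and all but AB1 SC 1 lay below every IPL tumor. The log2 difference was 0.40 (SE 0.12, adjusted p = 0.0209), and Bag3 was called in 16 of 16 fits without 1 tumor and without AB1 IPL 2 and AB1 IPL 4 (0.28, adjusted p = 0.0487). It was not called with the lane as a covariate (0.15, adjusted p = 0.726) or with the muscle score (0.25, adjusted p = 0.315). Nor was it called with the 4 tissue scores (0.23, adjusted p = 0.452) or with the replicate number as a block (0.398, adjusted p = 0.0511).

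The other 6 members were not called between the AB1 sites, and their groups overlapped. Hspa8 was at 2387 ± 496.9 CPM in IPL and 2479 ± 527.4 CPM in SC tumors (log2 difference -0.07, 95% interval -0.34 to 0.20), and Hsp90ab1 at 2652 ± 284.2 and 2463 ± 404.9 CPM (0.09, -0.10 to 0.28). Hspe1 was at 138.2 ± 20.67 and 125.0 ± 14.96 CPM (0.13, -0.06 to 0.32). For these abundant genes the intervals left room for differences of up to about 0.3 on the log2 scale. Hsph1 (0.22, -0.32 to 0.76) and Dnajb1 (0.19, -0.15 to 0.53) varied more between tumors. Hsp90aa1 was at 788.4 ± 286.4 CPM in IPL and 850.5 ± 141.4 CPM in SC tumors (-0.13, -0.56 to 0.30). Its wide spread in IPL tumors came from AB1 IPL 4 and AB1 IPL 2, at 255.4 and 472.6 CPM, where the other 6 lay between 802.2 and 1094 CPM. Without these 2 tumors the difference was 0.10 (adjusted p = 0.543).

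**Figure D3:**
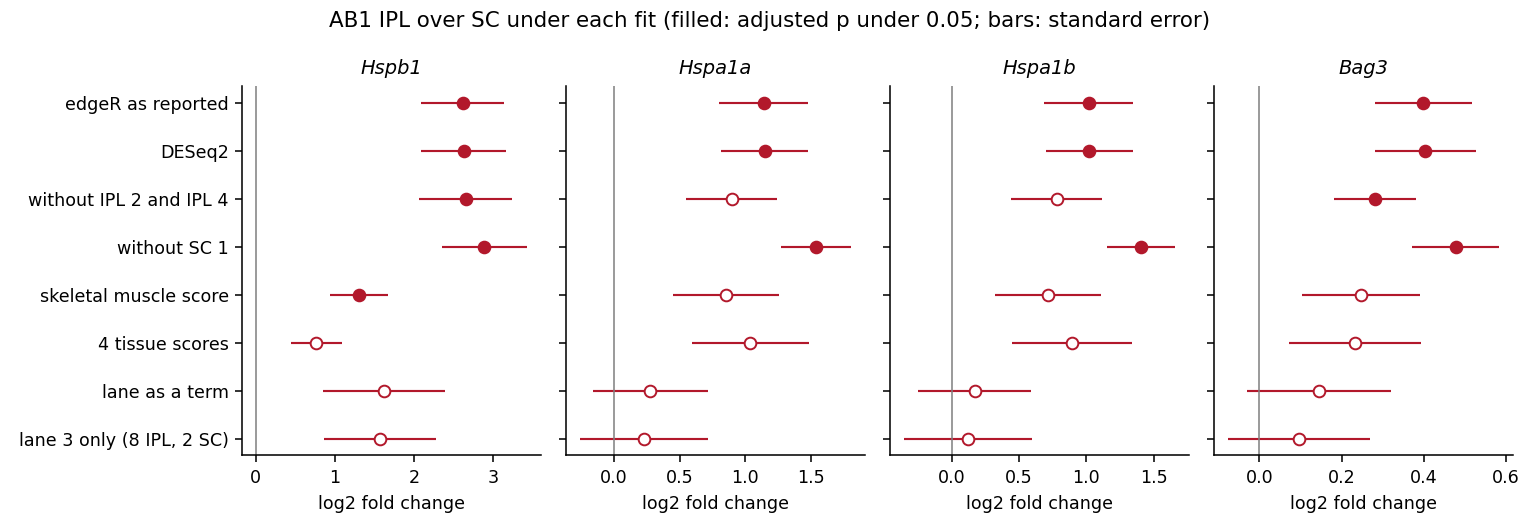
Log2 difference between AB1 IPL and AB1 SC tumors for Hspb1, Hspa1a, Hspa1b and Bag3 under each fit, with bars of 1 standard error and filled points where the adjusted p was under 0.05. Hspb1 fell from 2.62 to 0.76 with the 4 tissue scores, and Hspa1a from 1.14 to 0.28 with the lane as a covariate.

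In AE17 tumors none of the 10 members was called between the sites by edgeR, where 2.6% of 14668 genes were called higher in IPL tumors and 3.13% lower. DESeq2 called 1, Hspb1. At an unadjusted p under 0.05 there were 3696 genes, with Hspb1 and Bag3 among them. The members' median log2 difference was 0.25 and that of all genes was 0.00, and 9 of the 10 estimates were above 0. No member had groups that did not overlap, as 0.573% of all genes did.

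Hspb1 came closest. It ranged from 123.5 to 252.5 CPM, with a median of 184.4, in AE17 IPL tumors. The AE17 SC tumors ranged from 26.02 to 185.6 CPM, with a median of 94.7. All 8 IPL tumors lay above the SC median and 6 of 8 SC tumors lay below every IPL tumor. The log2 difference was 0.94 (SE 0.29, 95% interval 0.37 to 1.51) with an adjusted p of 0.0641 by edgeR and 0.0152 by DESeq2. It passed with the muscle score (0.95, adjusted p = 0.0417) and without AE17 IPL 5, AE17 SC 1 or AE17 SC 3 (adjusted p from 0.0159 to 0.118 over the 16 fits without 1 tumor). It did not pass with the 4 tissue scores (0.75, adjusted p = 0.417), with the lane as a covariate (0.94, adjusted p = 0.259), with all 32 mice in 1 fit (0.94, adjusted p = 0.161) or within lane 1 (0.94, adjusted p = 0.334, 3 IPL and 8 SC tumors). Of the 12 skeletal muscle markers, 0 were called between the AE17 sites, with a median log2 difference of -0.55, and of 3 cardiac muscle markers 1 was called higher in IPL tumors (median 0.91), where the summed cardiac level had a median of 23.8 CPM against 12.4 CPM in SC tumors.

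In AE17 tumors the estimates for Hspa1a and Hspa1b rested on 1 animal. AE17 IPL 5 had 55.4 CPM of Hspa1a and 79.8 CPM of Hspa1b, while the other 7 AE17 IPL tumors had at most 13.6 and 18.2 CPM, and the SC tumors had 4.07 to 14.8 and 7.13 to 20.3 CPM. The log2 difference was 0.64 (SE 0.47, adjusted p = 0.42) for Hspa1a and changed to -0.14 without AE17 IPL 5, and that of Hspa1b changed from 0.58 to -0.22. The same tumor had the highest levels of its group in Hsph1 (339.4 CPM), Dnajb1 (137.2 CPM) and Bag3 (117.4 CPM), but the lowest in Hspb1 (123.5 CPM). It also had 919 CPM of adipocyte markers and 229 CPM of cardiac muscle markers, where the group medians were 33.6 and 23.8 CPM. With the 4 tissue scores named above, which include adipocytes and cardiac muscle, the log2 difference was -0.18 for Hspa1a, -0.22 for Hspa1b, 0.03 for Hsph1 and 0.10 for Dnajb1, against 0.64, 0.58, 0.34 and 0.35 without them, and none was called in either fit. Bag3 differed by 0.16 (SE 0.06, adjusted p = 0.128) and Dnajb1 by 0.35 (SE 0.18, adjusted p = 0.234). Hspa8 (-0.23 to 0.22), Hsp90aa1 (-0.04 to 0.37), Hsp90ab1 (-0.06 to 0.18), Hspe1 (-0.03 to 0.29) and Hsph1 (-0.11 to 0.78) had 95% intervals of the log2 difference that included 0.

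**Figure D4:**
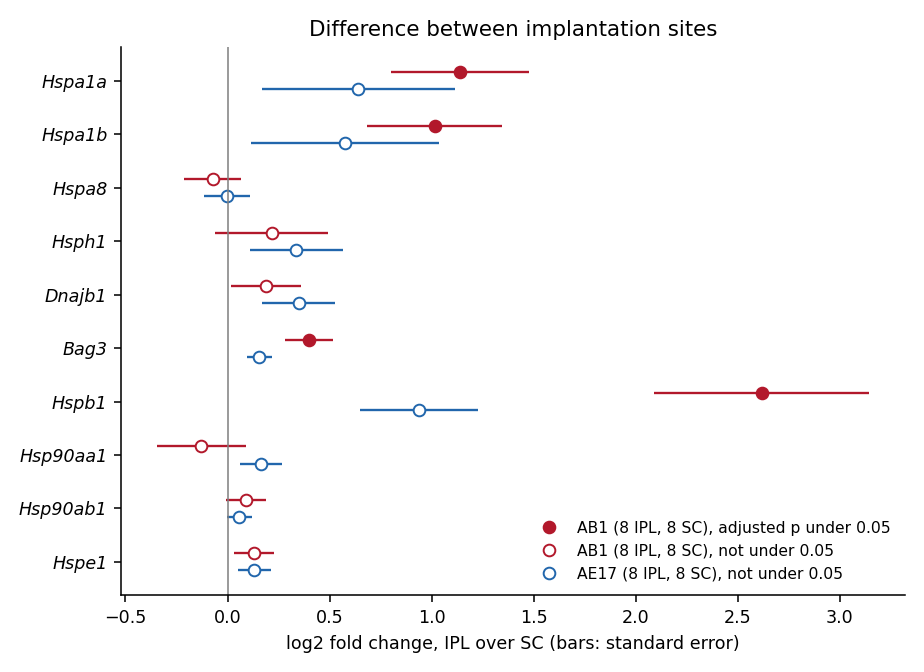
Log2 difference between IPL and SC tumors for each of the 10 genes in AB1 and AE17 tumors, with bars of 1 standard error and filled points where the adjusted p was under 0.05. The filled points are the 4 AB1 values of Hspb1, Hspa1a, Hspa1b and Bag3, from 0.40 to 2.62.

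Whether the site difference itself differed between the models was tested by the interaction. It was called for 1 member, Hspb1, with 1.70 more on the log2 scale in AB1 than in AE17 (SE 0.60, adjusted p = 0.0423), where 11.9% of 15681 genes were called higher and 8.62% lower. This call was close to the threshold and was present in 12 of the 32 fits without 1 tumor (adjusted p from 0.0185 to 0.0728). Over these fits the log2 value stayed between 1.49 and 1.98. The call was also absent without the filter on low counts (1.70, adjusted p = 0.0852), with the muscle score (1.55, adjusted p = 0.105) and with the 4 tissue scores (1.48, adjusted p = 0.21), where the value changed little, and with the lane, where it was 0.70 (adjusted p = 0.742). For Hspa1a the interaction was 0.52 (SE 0.60, adjusted p = 0.593) with all tumors but 1.69 (adjusted p = 0.00352) without AB1 SC 1 and AE17 IPL 5, and for Hspa1b 0.46 and 1.63 (adjusted p = 0.629 and 0.00264). Bag3 moved from 0.26 to 0.38 (adjusted p = 0.178 and 0.0254). These 2 tumors were left out because of their outlying levels of the same genes. Leaving out 1 tumor was enough for each call, AE17 IPL 5 for Hspa1a (1.29, adjusted p = 0.0433) and Hspa1b (1.24, adjusted p = 0.0399) and AB1 SC 1 for Bag3 (0.36, adjusted p = 0.0403).

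The models were then compared at each site. AB1 IPL tumors were lower than AE17 IPL tumors in 4 members and higher in none, and AB1 SC tumors were lower than AE17 SC tumors in 5 members and higher in none. Such calls were common among all genes, where 31.6% were higher and 31.8% lower in AB1 in the pleura, and 28.6% and 29.7% under the skin. No lane held tumors of both models at the same site, so that no model difference could be taken within a lane, and a fit with the lane as a covariate joined the models only through lane 2, with its AB1 SC and AE17 IPL tumors.

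Hspb1 had the largest fold difference between the models among the members. Every AB1 tumor had less than any AE17 tumor of the same site, with log2 differences of -2.26 in IPL (SE 0.43, adjusted p = 3.5e-05) and -3.95 in SC tumors (SE 0.47, adjusted p = 1.76e-08). Groups without overlap were found for 28.1% of all genes in the pleura and for 30.9% under the skin. Bag3 was lower in AB1 by 0.59 on the log2 scale in IPL tumors (adjusted p = 2.68e-06) and by 0.85 in SC tumors (adjusted p = 4.09e-09). It ranged from 82.0 to 97.9 CPM in AE17 SC tumors and from 87.5 to 117.4 CPM in AE17 IPL tumors, and only AB1 IPL 4 reached that range. Hspa8 was lower in AB1 at both sites, with 0.71 of the AE17 level in IPL tumors (log2 difference -0.49, adjusted p = 0.00178) and 0.74 of it in SC tumors (-0.44, adjusted p = 0.00495). With the lane as a covariate Hspa8 was still called in IPL tumors (-0.74, adjusted p = 0.0186) but not in SC tumors (-0.26, adjusted p = 0.406), and Hspb1 and Bag3 were called at both sites.

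Hspa1a and Hspa1b were lower in AB1 than in AE17 tumors under the skin (log2 difference -1.20 and -1.06, adjusted p = 0.0182 and 0.0313) and were not called in the pleura (-0.68 and -0.60, adjusted p = 0.158 and 0.206), and the interaction given above was not called for either gene. The call of Hspa1b under the skin was absent in 7 of 32 fits without 1 tumor (adjusted p up to 0.0619). Its log2 difference was -1.44 to -0.96 over these 32 fits. The call was also absent without the filter on low counts (-1.04, adjusted p = 0.0685). The values in the pleura became 0.09 and 0.18 without AE17 IPL 5. With the lane as a covariate they were -2.27 and -2.16 and were called (adjusted p = 0.0213 and 0.024). Hsp90aa1 was called lower in AB1 in the pleura (-0.45, adjusted p = 0.0303) but not without AB1 IPL 2 and AB1 IPL 4 (-0.20, adjusted p = 0.138). This call was also absent with total-count scaling (-0.38, adjusted p = 0.0655) and without the filter on low counts (-0.42, adjusted p = 0.0692). It was absent with the lane (adjusted p = 0.141), the 4 tissue scores (adjusted p = 0.23) and the muscle score (adjusted p = 0.0868), and present with DESeq2 (-0.44, adjusted p = 0.0314). Hsph1, Dnajb1, Hsp90ab1 and Hspe1 were called at neither site. For Hsp90ab1 the 95% interval of the log2 difference was -0.19 to 0.13 in IPL and -0.24 to 0.08 in SC tumors, and for Hspe1 it was -0.12 to 0.24 and -0.14 to 0.22.

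To set the inducible against the constitutive member of a pair within each tumor, 2 ratios were tested by exact permutation, two-sided, with p values adjusted over 8 comparisons. The summed level of Hspa1a and Hspa1b was a small share of that of Hspa8. It had a median of 0.00781 of the Hspa8 level in AB1 IPL tumors (0.00617 to 0.0165) and 0.00343 in AB1 SC tumors (0.00234 to 0.00781). The mean log2 ratio was higher by 1.21 in AB1 IPL tumors, with all 8 above the SC median (exact permutation p = 0.000777, adjusted p = 0.00622). In AE17 tumors the medians were 0.00628 in IPL and 0.00635 in SC tumors, with a difference of 0.20 (exact permutation p = 0.685) that became -0.12 without AE17 IPL 5 (exact permutation p = 0.699). Under the skin, AB1 tumors had the lower ratio, by 0.76 on the log2 scale (exact permutation p = 0.0177, adjusted p = 0.0472). Within lane 3, the AB1 site difference was 0.61, with 8 IPL against 2 SC tumors (exact permutation p = 0.222). The muscle score was not part of these tests.

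The ratio of Hsp90aa1 to Hsp90ab1 had group medians of 0.339 in AB1 IPL, 0.339 in AB1 SC, 0.396 in AE17 IPL and 0.374 in AE17 SC tumors. The groups overlapped. AB1 IPL tumors had a lower mean log2 ratio than AE17 IPL tumors by 0.53, and all 8 lay below the AE17 IPL median (exact permutation p = 0.00326, adjusted p = 0.013). AB1 IPL 4 was far below the others of its group, at 0.0874. The difference was -0.29 to -0.60 when 1 tumor was left out. Neither site comparison passed for this ratio (exact permutation p = 0.214 in AB1 and 0.178 in AE17).

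**Figure D5:**
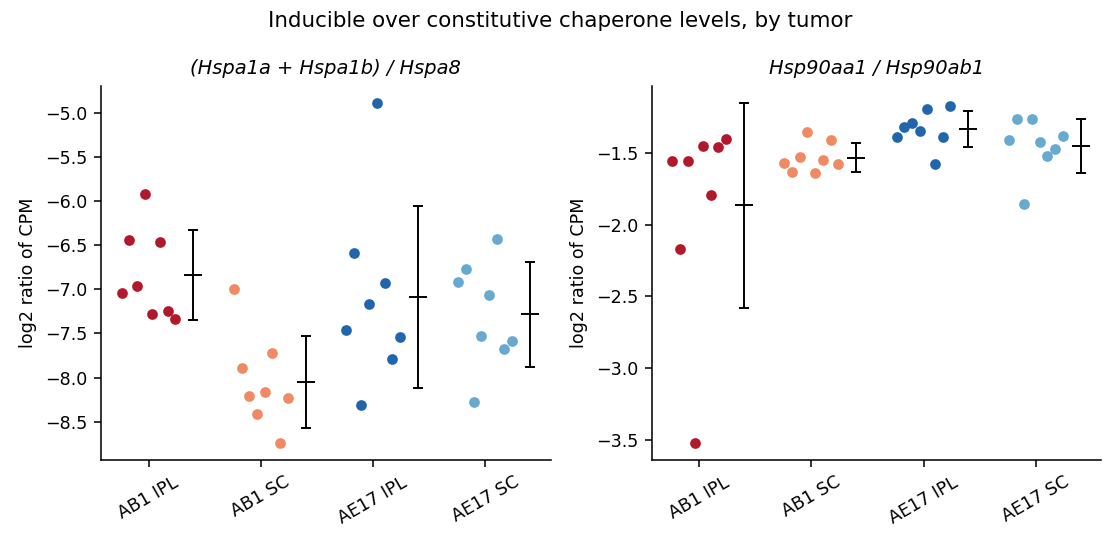
Ratio of the summed CPM of Hspa1a and Hspa1b to Hspa8 (left) and of Hsp90aa1 to Hsp90ab1 (right) on a log2 scale, with 1 point per tumor and the group mean and SD (n = 8) beside the points. The HSP70 ratio averaged -6.84 in AB1 IPL and -8.05 in AB1 SC tumors (log2), and AB1 IPL 4 stands below all other tumors in the HSP90 ratio, at -3.52.

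Variation between tumors of 1 group set the members apart as well. The SD of log2 CPM over 8 mice of Hspa1a was 0.60 in AB1 IPL, 0.72 in AB1 SC, 1.13 in AE17 IPL and 0.61 in AE17 SC tumors, larger than that of between 81.5% and 97.4% of 15681 genes. Hspb1 varied most in AB1 SC tumors, with an SD of 1.36. Hsp90ab1 varied by 0.09 to 0.23 and Bag3 by 0.10 to 0.24. The median over all genes was 0.31, 0.17, 0.20 and 0.24 in these groups, so that AB1 IPL tumors varied more in general. AB1 SC 1 was the highest of its group in 9 of the 10 members, Hspe1 being the exception. Its chaperone sum of 8572 CPM compares with a group median of 5986 CPM.

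After subtracting the group means, Hspa1a followed Hspa1b with a Pearson r of 0.995 over 32 tumors, a value that shared reads may affect, and Dnajb1 with 0.742. Bag3 (0.699) was at rank 7 and Hsph1 (0.653) at rank 21 among 13982 genes ordered by likeness to Hspa1a. Hspa8 followed Hsph1 with an r of 0.822 and Dnajb1 with 0.837. Gm8326 was most like Hspa8 (0.981), followed by Banp (0.898), which was also the most like Hsph1 (0.825). Hspb1 had an r of 0.102 with Hspa1a and 0.062 with Hspa8. The genes most like it were Flnc (0.831) and Dysf (0.815), which encode muscle structural and membrane repair proteins, and the small heat shock protein Cryab (0.768). Bag3 was most like Syvn1 (0.798), Hsp90ab1 most like Zc3h18 (0.832) and Hspe1 most like Ddx31 (0.835). Hsp90aa1 was most like its copy Gm12346 (0.998) and then Hnrnpu (0.975), and correlated with Bag3 at -0.392. AB1 IPL 4 had the lowest Hsp90aa1 (255.4 CPM) and the highest Bag3 (95.57 CPM) of its group. No correlation was taken without this tumor, so its part in these values was not tested. The tumors share lanes and depth, and these correlations are descriptions.

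Of the other small heat shock proteins, 5 were tested in AB1 and all were higher in IPL tumors. With Hspb1, 6 of 6 were called and their median log2 difference was 1.45. Hspb7, a muscle member, averaged 80.7 CPM in IPL and 9.85 CPM in SC tumors (3.01, SE 0.74, adjusted p = 0.00733). Cryab differed by 1.69 (SE 0.28, adjusted p = 0.000409). Hspb8, the partner of Bag3, averaged 91.6 and 55.6 CPM (0.70, SE 0.09, adjusted p = 5.2e-05), and Hspb2 11.7 and 8.58 CPM (0.44, SE 0.11, adjusted p = 0.00675). Most of these genes are muscle-expressed. Of all genes 12.3% were called higher here. The count was 2 of 6 with the muscle score as a covariate, 1 of 6 with the lane and 1 of 6 with the 4 tissue scores, fits in which 688, 107 and 275 of all 14645 genes were called higher, against 1803 without a covariate. In AE17 tumors 2 of 7 were called higher, Hspb8 (0.31, SE 0.05, adjusted p = 0.00715) and Hspb2 (0.87, SE 0.23, adjusted p = 0.0376). Of all genes 2.6% were called higher. The count was 3 of 7 with the muscle score, 0 of 7 with the lane and 0 of 7 with the 4 tissue scores, where 542, 0 and 6 of all 14668 genes were called higher.

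The other chaperone families are given against all genes tested, of which 12.3% were called higher and 10.7% lower in AB1 IPL tumors, and 2.6% and 3.13% in AE17. Among 9 further HSP70 and HSP110 genes in AB1, Hspa12b was higher (0.63, adjusted p = 0.00371) and Hspa5, the chaperone of the endoplasmic reticulum, was lower in IPL tumors (-0.24, adjusted p = 0.0172). Of 16 further HSP40 genes, 3 were higher, led by Dnaja4 (1.31, adjusted p = 0.00627), and of 5 further BAG genes Bag6 (0.27, adjusted p = 0.0274) and Bag1 (0.22, adjusted p = 0.0306) were higher. Of 11 further HSP90 genes and co-chaperones, Unc45a was higher (0.24, adjusted p = 0.0255). None of the 8 other chaperonin subunits was called in either model, as in Hspd1, the partner of Hspe1 (log2 difference -0.19 in AB1, adjusted p = 0.365, and -0.01 in AE17, adjusted p = 0.95). Of 13 further HSF1 targets, 4 were higher in AB1, Hspb8, Cryab, Serpinh1 and Dnaja4, and 2 in AE17, Hspb8 and Serpinh1. In AE17 no other HSP70, HSP40 or BAG gene was called, and St13 alone among the HSP90 co-chaperones was higher (0.17, adjusted p = 0.0268).

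Stress programs apart from HSF1 gave calls in both directions and are read against the same shares of all genes. Of 16 genes of the unfolded protein response in AB1, 1 was higher (Pdia4, 0.22, adjusted p = 0.041) and 2 were lower (Trib3, -1.01, adjusted p = 0.00321, and Hspa5), and in AE17 Trib3 was higher (0.68, adjusted p = 0.0475). Of 7 immediate early genes in AB1, Dusp1 was higher (0.99, adjusted p = 0.0121) and Atf3 (-0.74, adjusted p = 0.0101) and Egr1 (-0.78, adjusted p = 0.0248) were lower, and none was called in AE17. The heat shock factor genes Hsf1 and Hsf2 were not analysed here. Hsf4 and Hsbp1 were tested and not called between the sites of either model.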

How the data were processed

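The authors made the deposited counts of reads on each gene from 50 bp single-end reads, which they mapped with HISAT2 (version 2.0.4) and counted with SummerizeOverlaps, without normalization; the build is written as mm11 in their methods. Of the 39676 gene identifiers, 39495 were found in GENCODE M21 without regard to version and 36719 with the same version, and coordinates and exon lengths were taken from it. How multi-mapped reads and strand were handled is not given in the sources used here. Of the whole table, 39676 genes and 32 mice were used, with 1 column per mouse, and lanes were read from the column names.

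Counts were tested in R 4.3.3 with edgeR 4.0.16 (filterByExpr, TMM, robust quasi-likelihood F test, two-sided), within each model for the site and over all 32 mice for the model and the interaction, with Benjamini-Hochberg adjustment over all genes tested. SE is the log2 difference divided by the square root of F, and intervals are 1.96 SE wide on each side. Ratios of counts (pseudocount 0.5 counts) were compared by exact permutation. Likeness used log2 CPM with a prior count of 2, in genes that averaged 1 CPM or more. Alternatives were DESeq2 1.42.0, other scaling, no filter, a replicate block, all 32 mice in 1 fit for the site comparisons, lane or tissue scores as covariates, single lanes, summed Hspa1a and Hspa1b, an adjusted p under 0.01 and leaving out each mouse. Fits without AB1 IPL 2 and 4, without AB1 SC 1 and AE17 IPL 5, and with the muscle score alone were added after seeing the data. The procedures were tested on simulated data.

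The members and the gene lists were chosen with earlier results of these data known. Genes are named by a rule: all members, at most 4 called genes of a pathway list with the smallest adjusted p (otherwise the 2 most abundant), at most 3 genes of a marker list and up to 3 genes most like a member. Calb2 and Upk3b were named after their values were seen.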

Additional observations from a re-analysis of the deposited data

Results flagged for a closer look

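In 12 of the groups of 8 values examined (40 of member levels and 8 of ratios), the highest or lowest tumor lay apart from the rest by more than Dixon's 95% limit for 8 values, where chance gives about 1 in 20. Member levels were examined on the linear CPM scale and ratios on the log2 scale. AE17 IPL 5 stood apart as the highest of its group in Hspa1a (55.36 CPM), Hspa1b (79.8 CPM), Hsph1 (339.4 CPM) and Dnajb1 (137.2 CPM). AB1 SC 1 stood apart as the highest of its group in Hspa1a (10.63 CPM), Hspa1b (17.36 CPM) and Hsph1 (294.4 CPM). Hspa1a and Hspa1b share reads and are not independent of each other. AB1 IPL 4 had the highest Bag3 of its group (95.57 CPM) and the lowest ratio of Hsp90aa1 to Hsp90ab1 (0.0874). AE17 SC 3 had the lowest Hsp90aa1 of its group (646.3 CPM) and the lowest ratio of Hsp90aa1 to Hsp90ab1 (0.276). AE17 IPL 1 had the highest Hsp90ab1 of its group (3261 CPM). The scale mattered, and on the log2 scale 7 of the 10 member levels stood apart, without Hsph1 in both tumors and Dnajb1. On the linear scale neither HSP90 ratio did, and the ratios of Hspa1a plus Hspa1b to Hspa8 in AE17 IPL 5 and AB1 SC 1 stood apart instead, as the highest of their groups.

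The site difference of Hspb1 was larger in AB1 than in AE17 tumors by 1.695 on the log2 scale, which the interaction test called (edgeR, adjusted p = 0.0423) and which 20 of the 32 fits without 1 tumor did not call. The value stayed between 1.487 and 1.981 over these 32 fits, with an adjusted p of at most 0.0728.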

How the results depend on the processing

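Over the alternatives other than leaving out single mice, 556 of 630 member values kept their direction and their side of the threshold or, if they were not called, moved by less than 1 SE, 39 lost a call, 9 gained one and 26 moved further. The sign changed for 40 of the 630, none of them called. The 630 include 50 values at an adjusted p under 0.01, which are the main estimates with another threshold and could not change sign. They also include 50 with Hspa1a and Hspa1b summed, where the other members kept nearly the same estimates. In AB1, 4 members were called between the sites, and 1 was at an adjusted p under 0.01. The count was 0 with the lane, 0 with the tissue scores, 0 within lane 3, 1 with the muscle score, 2 without AB1 IPL 2 and AB1 IPL 4, 3 without a filter and 3 with all 32 mice in 1 fit, and leaving out single mice gave 2 to 4 (2 without AB1 IPL 4). In AE17, no member was called by edgeR, and 1 by DESeq2, with the replicate block, with the muscle score and without AE17 IPL 5 (leaving out single mice gave 0 to 1). The interaction was called for 1 member, for 0 at an adjusted p under 0.01, without a filter, with the lane, with the tissue scores and with the muscle score, and for 4 without AB1 SC 1 and AE17 IPL 5. Leaving out single mice gave 0 to 2. Between the models, 5 members were called in SC tumors and 3 at an adjusted p under 0.01, and leaving out single mice gave 4 to 5 in SC and 3 to 4 in IPL tumors.

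The site difference in the log2 ratio of Hspa1a plus Hspa1b to Hspa8 in AB1 was 1.21, 1.08 to 1.36 without single mice and 0.608 within lane 3. The model difference in the log2 ratio of Hsp90aa1 to Hsp90ab1 in SC tumors was -0.08, and -0.142 to -0.057 without single mice; it passed without AE17 SC 3 (-0.142, exact permutation p = 0.0197). The cause of these changes was not tested.

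Same-numbered tumors of the 2 sites had deviations with a mean correlation of -0.118 in AB1 and 0.072 in AE17, so replicate numbers were not taken to pair the mice. With the replicate block, 3 members were called in AB1, all but Bag3 (0.398, adjusted p = 0.0511) of the 4 called without it, 1 in AE17 (Hspb1, 1.103, adjusted p = 0.0386), 1 in the interaction, 4 between IPL and 5 between SC tumors. Over all genes the block gave 2263 calls in AB1, where 3374 were made without it, and 661 in AE17, where 840 were made. Of the small heat shock proteins the block gave 4 of 6 in AB1 and 3 of 7 in AE17. With the lane as a covariate 386 genes were called in AB1 and 1 in AE17, with the tissue scores 924 and 22, and with the muscle score 1322 and 1090. Total-count scaling moved the median of all genes by at most 0.06 on the log2 scale. Counts of the members fell to 16 in the lowest tumor, and depth was not tested by thinning. The p values measure the spread between mice within groups whose lanes also differed. Whether the mice came from 1 experiment is not given in the sources used here, and no repeat was analysed.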
